A study of Mus musculus with 16 samples.

Results

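The insulin-like growth factor (IGF) family was followed through demyelinated mouse spinal cord: the ligands Igf1 and Igf2, the receptors Igf1r and Igf2r, and the binding proteins Igfbp2, Igfbp3, Igfbp4, Igfbp5, Igfbp6 and Igfbp7. These 10 genes were found by symbol among the 46078 Ensembl genes of the deposited count table, and all 10 passed the filter on low counts that left 15096 genes. The 10 genes were selected on earlier values of the same libraries, which were a lower level of Igf2 and Igfbp4 in exercise lesions than in control lesions at day 10, and a higher level of Igf2 at day 10 than at day 5 in control lesions. For the 10 genes, values of these comparisons are therefore given as a description, without p-values.

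All libraries came from C57BL/6 mice of 8 to 12 weeks whose cord had been injected with lysolecithin, a lipid that dissolves myelin. The groups were exercise day 10, control day 10, exercise day 5 and control day 5, with 4 libraries each. Exercise mice had a free running wheel, and control mice had a locked wheel. Lesions were cut from frozen cord by laser microdissection, so that each library mixes all cell types of the lesion. The labels state neither that each library is a separate animal nor the sex, and p-values measure the spread between libraries.

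IGF1 and IGF2 are small secreted proteins that signal survival and growth through the tyrosine kinase receptor IGF1R. IGF2R takes IGF2 to lysosomes and does not signal in this way. The binding proteins hold IGFs outside cells, and proteases release them. In demyelinated tissue, IGF1 is best known as a product of microglia, macrophages and astrocytes that favours oligodendrocyte survival and myelin formation. In the adult nervous system Igf2 is best known from the meninges and choroid plexus. It is an imprinted gene, read from the paternal copy in many tissues but not in all, and the copy used was not measured here.

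Total counts per library ran from 9773137 to 11089749 in exercise day 10, 10714317 to 12696777 in control day 10, 8125981 to 10930385 in exercise day 5 and 11204380 to 13930582 in control day 5. At day 5 every exercise library was therefore shallower than every control library. Levels are CPM, each library's counts scaled to its effective size, and 1 count was worth 0.0727 to 0.127 CPM. Markers fixed for the lesion's cell types were present: myelin genes summed to 11808 to 27318 CPM in exercise and 23805 to 26762 CPM in control libraries at day 10. The neuronal markers were at 87.3 to 445 CPM in exercise and 127 to 355 CPM in control libraries at day 10. Replicates correlated at 0.949 to 0.974 (Pearson, log2 CPM across genes, which are not independent).

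Igf1, the main ligand of IGF1R, had close to the same level in all 4 groups. Igf2r, Igfbp2 and Igfbp3 were lower at day 10 than at day 5, in exercise and in control lesions. Igf2 and Igfbp4, whose day 10 values chose the family, had every control day 10 library above all 12 others. Igfbp5 had a mean 3.15 times as high at day 10 as at day 5 in exercise lesions, with overlapping libraries, and missed the threshold.

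**Figure D1:**
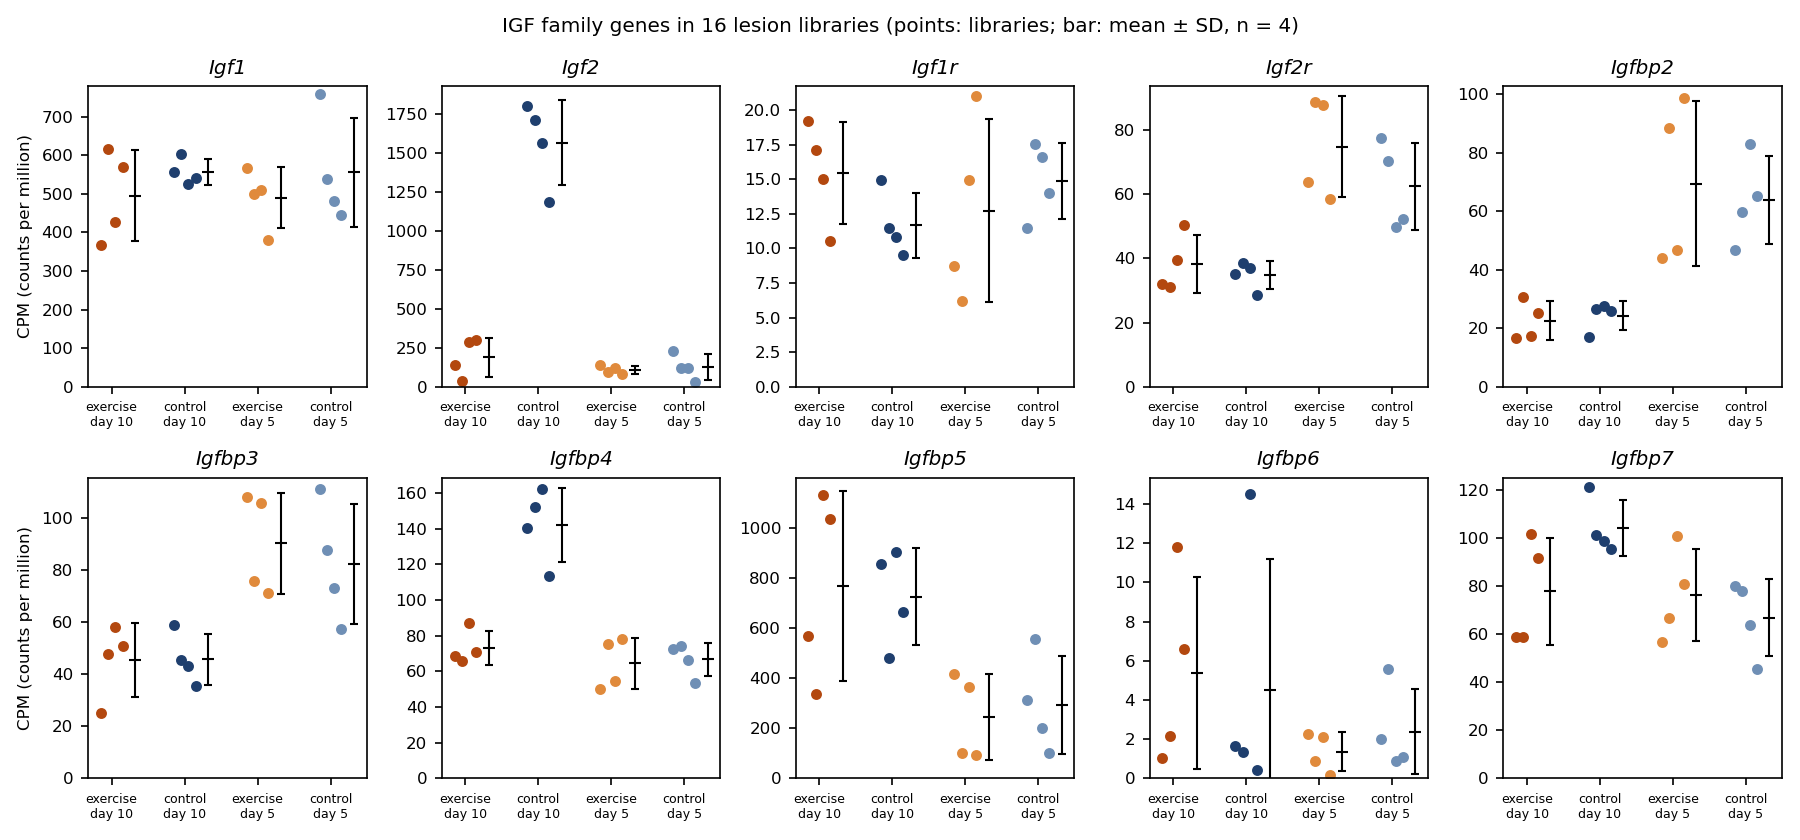
Level in CPM (linear axes from 0) of the 10 IGF family genes in each of the 16 libraries, with the mean and SD of 4 libraries to the right of each group's points, cut at 0 where mean minus SD is negative. Control day 10 stands above the other groups for Igf2 (1182 to 1802 CPM) and Igfbp4 (114 to 162 CPM), and both day 10 groups lie below both day 5 groups for Igf2r and Igfbp2, apart from an overlap of exercise day 10 with control day 5 for Igf2r (a highest library of 50.4 CPM against a lowest of 49.9 CPM).

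Among the ligands, Igf1 (ENSMUSG00000020053, chromosome 10, 87858265 to 87937042, plus strand, GRCm38) averaged 495 ± 117 CPM in exercise and 557 ± 34.0 CPM in control lesions at day 10 (SD, n = 4 each). At day 5 it averaged 489.8 ± 78.5 CPM in exercise and 556 ± 141 CPM in control lesions. The order of the 4 group means was control day 10, control day 5, exercise day 10 and exercise day 5, and no neighbours in it differed beyond their spread. The day effect in exercise lesions was a log2 fold change of 0.02 (SE 0.17, edgeR adjusted p 0.967). The exercise effect at day 5 was -0.18 (SE 0.17, edgeR adjusted p 0.756). Tbc1d2b, Tmod3 and Ptp4a2 were closest to Igf1 over the 16 libraries (r 0.85, 0.85 and 0.84).

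Igf2 (ENSMUSG00000048583, chromosome 7, 142650766 to 142666816, minus strand) had 141, 37.0, 285 and 299 CPM in exercise day 10 replicates 13, 17, 18 and 19. In control day 10 replicates 2, 3, 4 and 5 it had 1802, 1712, 1559.6 and 1182 CPM. The groups did not overlap: the highest exercise library (299 CPM) lay far below the lowest control library (1182 CPM). In day 5 lesions it had 137, 92.1, 124 and 85.3 CPM in exercise replicates 1, 2, 7 and 12, and 229.8, 121, 123 and 29.6 CPM in control replicates 1, 2, 5 and 6. Those groups overlapped throughout, and the control libraries at day 5 spanned the wider range.

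At day 10 the log2 fold change of Igf2 for exercise against control was -3.04 (SE 0.58), and for day 10 against day 5 in control lesions it was 3.64 (SE 0.59). In exercise lesions the day effect was 0.80 (SE 0.54, edgeR adjusted p 0.389), so that a difference between the days was not shown there. The exercise effect at day 5 was -0.20 (SE 0.54, edgeR adjusted p 0.937). The day effects of exercise and control lesions differed by -2.84 (SE 0.77), a value built from the comparisons that chose Igf2. Across all 15096 genes edgeR called 0 for this difference, with 1376 at an unadjusted p under 0.05, and DESeq2 called 18. Igf2 was called for it in 0 of 21 alternatives, DESeq2 among them. In the authors' deposited table for day 10, which leaves out exercise replicate 17, the log2 fold change was -2.71 (SE 0.23). Relative to Igf1 per kilobase of exon, Igf2 stood at 0.104 to 1.15 in exercise and 3.78 to 5.62 in control libraries at day 10. At day 5 this ratio was 0.319 to 0.419 in exercise and 0.115 to 0.523 in control libraries.

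In these lesions, fewer cells of a type and less RNA per cell cannot be told apart. Of the 13 markers of fibroblasts and meninges, 11 were tested, and at day 10 their summed level was 1601 to 4676 CPM in exercise and 2959 to 3722 CPM in control libraries. Exercise replicates 18 and 19 had the highest sums of the 16 libraries (4676 and 3876 CPM), with Igf2 at 285 and 299 CPM, while control replicate 4 had a sum of 2959 CPM and Igf2 at 1559.6 CPM. The collagen genes Col1a2 (1564 ± 926 CPM in exercise and 1555 ± 217 CPM in control lesions) and Col3a1 (694 ± 382 CPM in exercise and 673 ± 49.2 CPM in control lesions) make up most of that sum. Slc6a13, a transporter gene of the meninges, averaged 0.956 ± 0.949 CPM in exercise and 4.54 ± 0.974 CPM in control lesions, without overlap. Ptgds, a prostaglandin D synthase made in meninges and oligodendrocytes, averaged 105 ± 61.8 CPM in exercise and 168 ± 27.4 CPM in control lesions. Neither passed the threshold in this comparison. Slc22a6 did not pass the filter on low counts. It was at 0 in every exercise library and averaged 0.0380 ± 0.0759 CPM in control lesions at day 10, too few counts to compare. Of the 11 tested markers, 3 had a positive and 8 a negative log2 fold change at day 10 (median -0.54), and their part in the result was not tested.

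**Figure D2:**
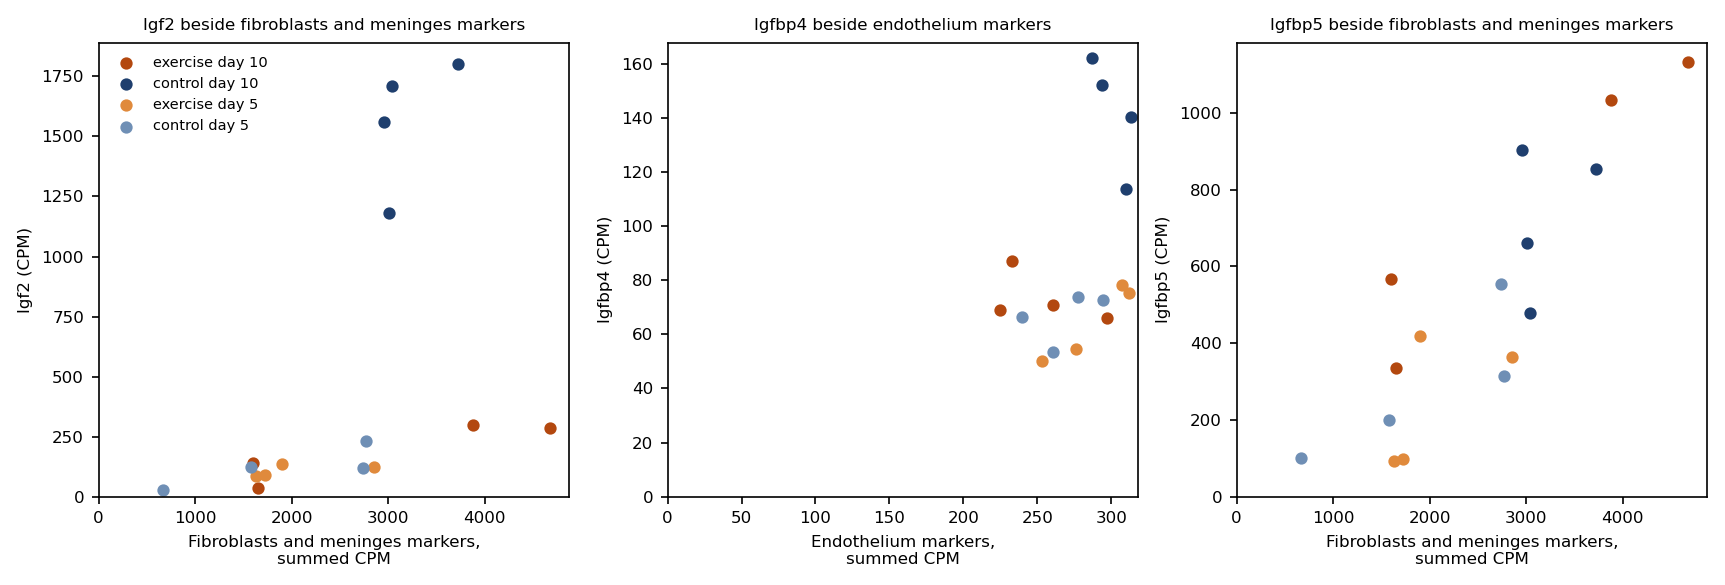
Igf2 against the summed CPM of fibroblast and meningeal markers, Igfbp4 against endothelial markers and Igfbp5 against fibroblast and meningeal markers, with 1 point per library on linear axes from 0. Exercise day 10 replicates 18 and 19 have the highest fibroblast sums with Igf2 at 285 and 299 CPM, while the 4 control day 10 libraries lie between 1182 and 1802 CPM of Igf2. The plotted endothelial sum holds Flt1. At day 10 it is 225 to 297 CPM in exercise and 287 to 314 CPM in control libraries, with overlap. Without Flt1, a choice made after its values were seen and not plotted, it is 113 to 142 CPM in exercise and 206 to 229 CPM in control libraries.

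The genes whose level followed Igf2 most closely over the 16 libraries, by Pearson correlation of log2 CPM, were Cemip, Itih2 and Cxcl12. Cemip (r 0.97, Spearman rho 0.92) breaks down hyaluronan and averaged 3.01 CPM in exercise and 11.2 CPM in control lesions at day 10. Itih2 (r 0.96, rho 0.92), whose protein joins to hyaluronan, averaged 9.86 CPM in exercise and 28.7 CPM in control lesions. The chemokine gene Cxcl12 (r 0.92, rho 0.79) averaged 33.5 CPM in exercise and 69.8 CPM in control lesions. These correlations describe 4 groups pooled and rest on the group means that define the pattern of Igf2. H19, the imprinted noncoding RNA gene that lies 72622 bases from Igf2 on the same strand and is read from the maternal copy, averaged 8.75 ± 6.73 CPM in exercise and 6.02 ± 3.04 CPM in control lesions at day 10, with overlap. The antisense gene Igf2os shares exon sequence with Igf2, and the counting used strand; Igf2os had 0.109 CPM over all libraries.

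Of the receptors, Igf1r (ENSMUSG00000005533, chromosome 7, 67952859 to 68226780, plus strand) was low, at 49 to 228 counts per library. It averaged 15.5 ± 3.69 CPM in exercise and 11.7 ± 2.34 CPM in control lesions at day 10, and 12.7 ± 6.62 CPM in exercise and 14.9 ± 2.75 CPM in control lesions at day 5. The ranges of all 4 groups overlapped, and the wide range of exercise day 5 (6.21 to 20.99 CPM) covered the means of the other groups. The day effect in exercise lesions was 0.27 (SE 0.29, edgeR adjusted p 0.604) and the exercise effect at day 5 was -0.22 (SE 0.29, edgeR adjusted p 0.843). The closest genes over the 16 libraries were Pdpk1, Wbp11 and Vps8 (r 0.84, 0.83 and 0.80), and Pdpk1 encodes a kinase of the same signalling path.

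Igf2r (ENSMUSG00000023830, chromosome 17, 12682406 to 12769664, minus strand) fell with time in exercise lesions. It had 31.9, 30.9, 39.5 and 50.4 CPM in exercise day 10 replicates 13, 17, 18 and 19, against 63.9, 88.8, 87.8 and 58.6 CPM in exercise day 5 replicates 1, 2, 7 and 12. Every exercise library of day 10 lay below every exercise library of day 5 (-0.97 on the log2 scale with an SE of 0.19, edgeR adjusted p 0.00298). In control lesions it had 35.2, 38.5, 36.9 and 28.7 CPM at day 10 (replicates 2, 3, 4 and 5) and 77.4, 70.2, 49.9 and 52.1 CPM at day 5 (replicates 1, 2, 5 and 6). The log2 fold change there was -0.84 (SE 0.18), again with no overlap. The exercise effect was 0.26 (SE 0.18) at day 5, where its adjusted p was 0.654 by edgeR, and 0.13 (SE 0.19) at day 10. Cell markers moved in the same exercise comparison. Of 9 markers of monocyte-derived macrophages, 5 were lower and 0 higher at day 10, among them Arg1 (35.4 CPM at day 10 and 288 CPM at day 5 on average) and Chil3 (1.04 CPM at day 10 and 11.99 CPM at day 5). Their summed level was 4851 to 6984 CPM at day 10 and 7498 to 12482 CPM at day 5, with no overlap. Of 8 markers of homeostatic microglia, 6 were higher and 0 lower, among them P2ry12 (188 CPM at day 10 and 62.7 CPM at day 5), and their summed level was 6914 to 14071 CPM at day 10 and 6208 to 8404 CPM at day 5. The part of these cells in the falls of Igf2r, Igfbp2 and Igfbp3 was not tested. Flna, Actg1 and Thbs1 followed Igf2r most closely over the 16 libraries (r 0.94, 0.93 and 0.93). Thbs1, the gene of thrombospondin 1, averaged 15.6 CPM at day 10 and 96.2 CPM at day 5 in exercise lesions. Airn, a noncoding RNA gene that runs through the locus on the opposite strand, shares no exon sequence with Igf2r.

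Among the binding proteins, Igfbp2 had the largest fall of the 10 genes in exercise lesions. Igfbp2 (ENSMUSG00000039323, chromosome 1, 72824503 to 72852474, plus strand) encodes a binding protein that also carries an integrin-binding motif and is made by glia. It had 16.7, 30.6, 17.5 and 25.3 CPM in exercise day 10 replicates 13, 17, 18 and 19, against 44.0, 88.6, 46.7 and 98.7 CPM in exercise day 5 replicates 1, 2, 7 and 12. The groups did not overlap, and the log2 fold change was -1.63 (SE 0.27, edgeR adjusted p 0.00138). In control lesions it had 16.9, 26.6, 27.6 and 26.0 CPM at day 10 and 46.8, 59.8, 83.1 and 65.2 CPM at day 5, a log2 fold change of -1.39 (SE 0.27) without overlap. Exercise and control lesions were close at both days, with log2 fold changes of -0.11 (SE 0.27) at day 10 and 0.12 (SE 0.26, edgeR adjusted p 0.912) at day 5. Znhit1, Ube2s and Mcm3 were closest to Igfbp2 (r 0.94, 0.93 and 0.92). Mcm3, a gene of DNA replication, averaged 32.9 CPM at day 10 and 52.4 CPM at day 5 in exercise lesions.

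Igfbp3 (ENSMUSG00000020427, chromosome 11, 7206086 to 7213923, minus strand) encodes the main IGF carrier of the blood. It had 25.1, 47.8, 58.1 and 50.6 CPM in exercise day 10 replicates 13, 17, 18 and 19, against 108, 75.9, 106 and 71.2 CPM in exercise day 5 replicates 1, 2, 7 and 12. The exercise groups did not overlap (-0.99 on the log2 scale with an SE of 0.24, edgeR adjusted p 0.0142). In control lesions it averaged 45.6 ± 9.80 CPM at day 10 and 82.2 ± 22.9 CPM at day 5, with a log2 fold change of -0.85 (SE 0.24) and an overlap between the highest day 10 library (58.9 CPM) and the lowest day 5 library (57.2 CPM). The gene most like Igfbp3 over the 16 libraries was Pecam1, an adhesion gene of endothelium (r 0.94, rho 0.89). Pecam1 averaged 7.54 CPM at day 10 and 15.2 CPM at day 5 in exercise lesions. Emp1 and Kitl came next (r 0.93 and 0.92). Like those given for Igf2r and Igfbp2, these correlations pool both days and so include the differences between the days. Of 10 endothelial markers, 3 were lower and 0 higher at day 10 in exercise lesions, and 9 of the 10 had a negative log2 fold change (median -0.60). Their summed level was 225 to 297 CPM at day 10 and 253 to 312 CPM at day 5. The exception, the receptor gene Flt1, averaged 121 CPM at day 10 and 76.4 CPM at day 5. Without it, a choice made after its values were seen, the sum was 113 to 142 CPM at day 10 and 179.8 to 249 CPM at day 5, with no overlap. In control lesions, where Igfbp3 was lower at day 10 too, 1 endothelial marker was higher and 0 lower. There 5 of the 10 had a positive and 5 a negative log2 fold change. The control sum without Flt1 was 206 to 229 CPM at day 10 and 158 to 245 CPM at day 5, with overlap. Whether endothelial RNA has a part in the fall of Igfbp3 was not tested.

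In exercise lesions, then, 3 of the 10 genes were lower and 0 higher at day 10, where edgeR called 10.1% of all 15096 genes in either direction, 4.9% lower and 5.17% higher, and 14.1% did not overlap between the groups. This comparison shares its exercise day 10 libraries with the one that chose Igf2 and Igfbp4, but neither of those genes is among the 3. The median log2 fold change was 0.11 over the 10 genes and 0.01 over all tested genes. In control lesions 2 genes were higher (Igf2 and Igfbp4) and 3 lower (Igf2r, Igfbp2 and Igfbp3) at day 10, beside 12.3% of all genes in either direction, 5.66% higher and 6.64% lower. The groups of 5 genes did not overlap (Igf2, Igf2r, Igfbp2, Igfbp4 and Igfbp7), beside 20% of all genes. In the control comparison the call on Igfbp3 was lost without control day 10 replicate 3, 4 or 5 or control day 5 replicate 1 or 2, with log2 fold changes of -0.84 to -0.67.

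**Figure D3:**
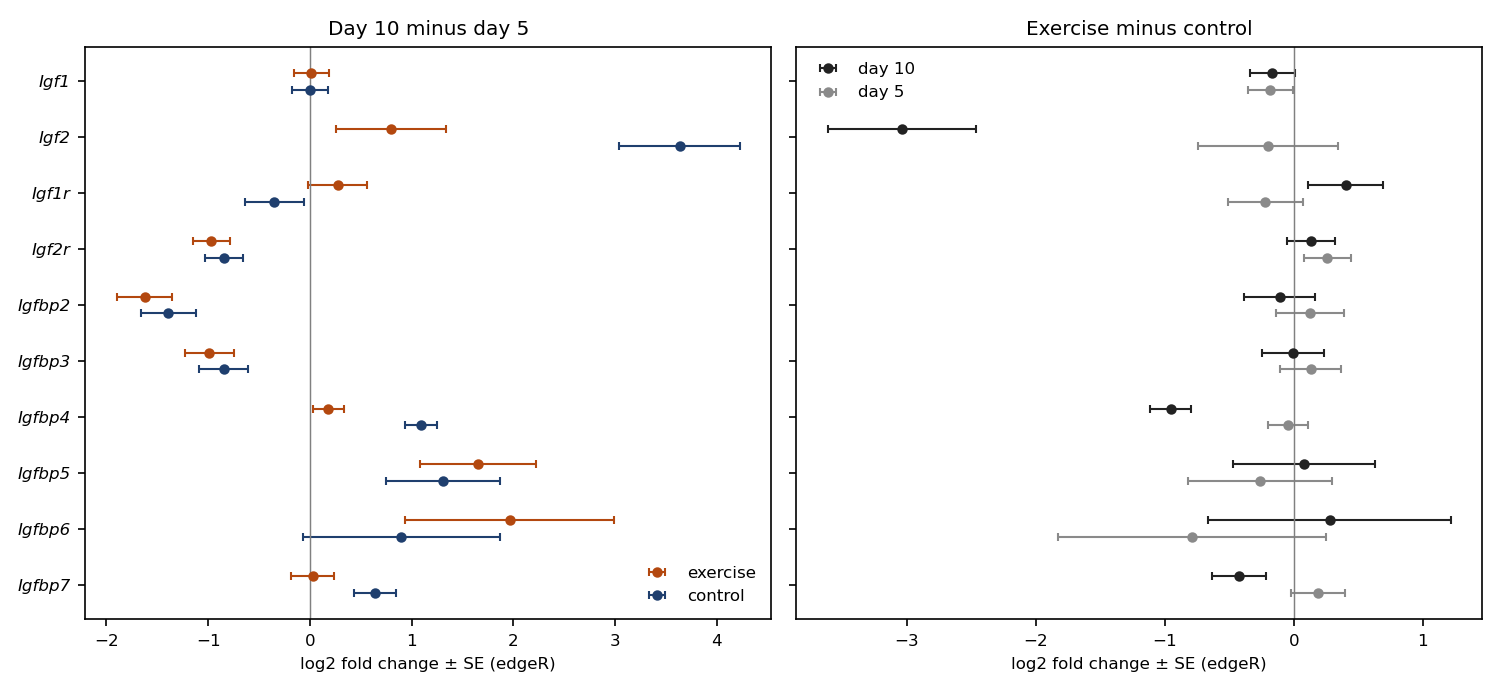
Log2 fold change and SE from edgeR of the 10 genes, for day 10 minus day 5 in exercise and control lesions (left) and for exercise minus control at day 10 and day 5 (right). Igf2r, Igfbp2 and Igfbp3 lie left of 0 in both wheel groups on the left panel, and Igf2 (-3.04) and Igfbp4 (-0.96) lie left of 0 for day 10 on the right panel.

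RefSeq promoter windows (GRCm38.p6) of the 3 genes that were lower at day 10 in both wheel groups are printed first, and those of the 2 genes that were lower in exercise than in control lesions at day 10 follow. Each is the 250 bases before the RefSeq start nearest to the 5′ end of the gene in the deposited table, on the gene's own strand and 5′ to 3′. Capitals mark the GC box GGGCGG and the TATA box TATAAA, searched on both strands.
Igf2r: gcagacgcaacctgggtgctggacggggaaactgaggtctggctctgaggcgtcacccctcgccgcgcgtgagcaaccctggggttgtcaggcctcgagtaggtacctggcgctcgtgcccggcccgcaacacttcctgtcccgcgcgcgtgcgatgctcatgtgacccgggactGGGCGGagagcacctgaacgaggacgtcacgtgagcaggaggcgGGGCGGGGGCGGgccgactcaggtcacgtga
Igfbp2: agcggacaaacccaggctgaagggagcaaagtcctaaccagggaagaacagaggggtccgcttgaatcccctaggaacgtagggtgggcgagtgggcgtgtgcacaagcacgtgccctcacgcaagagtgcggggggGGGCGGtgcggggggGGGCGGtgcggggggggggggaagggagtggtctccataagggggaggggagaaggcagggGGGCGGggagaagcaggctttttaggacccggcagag
Igfbp3: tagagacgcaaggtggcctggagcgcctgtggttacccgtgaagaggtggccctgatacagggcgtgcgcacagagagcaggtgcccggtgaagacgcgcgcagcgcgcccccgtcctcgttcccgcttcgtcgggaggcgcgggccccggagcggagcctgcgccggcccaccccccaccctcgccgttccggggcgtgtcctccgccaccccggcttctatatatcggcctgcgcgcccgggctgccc
Igf2: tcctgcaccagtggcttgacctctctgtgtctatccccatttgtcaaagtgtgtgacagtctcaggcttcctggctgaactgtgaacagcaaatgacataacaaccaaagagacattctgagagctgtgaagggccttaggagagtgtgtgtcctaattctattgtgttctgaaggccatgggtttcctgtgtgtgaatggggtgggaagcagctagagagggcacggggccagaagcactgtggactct
Igfbp4: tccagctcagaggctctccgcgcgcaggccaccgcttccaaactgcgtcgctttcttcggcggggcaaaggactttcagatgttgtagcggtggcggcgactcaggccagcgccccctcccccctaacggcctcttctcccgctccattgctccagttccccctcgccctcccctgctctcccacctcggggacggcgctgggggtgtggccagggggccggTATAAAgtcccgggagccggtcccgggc
The windows lie at chr17:12769707-12769956 for Igf2r (minus strand), chr1:72824230-72824479 for Igfbp2 (plus strand), chr11:7213924-7214173 for Igfbp3 (minus strand), chr7:142666817-142667066 for Igf2 (minus strand) and chr11:99040994-99041243 for Igfbp4 (plus strand).

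Igf2r and Igfbp2 each held 3 GC boxes, and the window of Igfbp3 held none despite a GC content of 73.2%. A GC box was present in 4 of the 10 members' windows and in 32.7% of the 32851 promoter windows of the RefSeq table. The TATA box was present in 2 of the 10 (Igfbp4 and Igfbp6) and in 12.4% of all windows. CCAAT, searched on both strands, was present in 2 of the 10 (Igf1 and Igfbp6) and in 33.8% of all. The Esrra site TCAAGGTCA, bound by a nuclear receptor that works with PGC1a, was in 0 of the 10 and in 0.387% of all. The window of Igf2 is 1 of 4 RefSeq starts of that gene, had a GC content of 50.8% against a median of 52.4% over all windows, and held none of these motifs. Counts per gene do not tell which of the 4 starts was used.

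Igfbp4 (ENSMUSG00000017493, chromosome 11, 99041244 to 99054392, plus strand) encodes a binding protein that mostly blocks IGF action and is cut by the protease PAPP-A. It had 68.8, 66.0, 87.0 and 71.0 CPM in exercise day 10 replicates 13, 17, 18 and 19, against 140.3, 152, 162 and 114 CPM in control day 10 replicates 2, 3, 4 and 5. The groups did not overlap. At day 5 it averaged 64.5 ± 14.3 CPM in exercise and 66.7 ± 9.31 CPM in control lesions. The log2 fold change for exercise against control was -0.96 (SE 0.16) at day 10 and -0.05 (SE 0.16, edgeR adjusted p 0.948) at day 5. For day 10 against day 5 it was 0.18 (SE 0.16, edgeR adjusted p 0.501) in exercise lesions and 1.09 (SE 0.16) in control lesions. The day effects of exercise and control lesions differed by -0.91 (SE 0.22), a value that holds the comparison that chose Igfbp4. For this difference Igfbp4 was called in 0 of 21 alternatives. In the authors' deposited table for day 10 its log2 fold change was -0.92 (SE 0.16).

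Cxcl12 (r 0.90), Vtn (r 0.89) and Cpq (r 0.88) followed Igfbp4 most closely over the 16 libraries, with Spearman correlations of 0.76, 0.78 and 0.65. Cxcl12 was among the 3 closest genes of both Igf2 and Igfbp4. These correlations pool the 4 groups and rest on the group means by which both genes were chosen, so nothing is read from the shared gene. Igf2 and Igfbp4 themselves had r 0.88 over all libraries, and 0.38 once each group's mean was taken out. Of the 10 endothelial markers, 2 had a positive and 8 a negative log2 fold change for exercise against control at day 10 (median -0.71), with 1 called lower, the transporter gene Slco1a4. Their summed level was 225 to 297 CPM in exercise and 287 to 314 CPM in control libraries. Flt1, a receptor gene for vascular growth factors, made up much of that sum and went the other way (121 CPM in exercise and 80.4 CPM in control lesions on average, log2 fold change 0.59). Without Flt1, a choice made after its values were seen, the sum was 113 to 142 CPM in exercise and 206 to 229 CPM in control libraries, with no overlap. Exercise replicate 17, with the lowest Igfbp4 of the day 10 libraries (66.0 CPM), had the highest Flt1 (184 CPM) and the lowest sum of the other 9 markers (113 CPM). Exercise replicates 13, 18 and 19 had sums of 137.7, 138.3 and 142 CPM, with Igfbp4 at 68.8, 87.0 and 71.0 CPM. Among control day 10 libraries the order differed: replicate 4 had the highest Igfbp4 (162 CPM) and the lowest such sum (206 CPM). From day 5 to day 10 in exercise lesions, the mean of that sum went from 211 to 133 CPM and mean Igfbp4 from 64.5 to 73.2 CPM. In control lesions the mean sum went from 195 to 221 CPM and mean Igfbp4 from 66.7 to 142 CPM. The part of endothelial RNA in this result was not tested.

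For exercise against control at day 10, 2 of the 10 genes were lower and 0 higher, where edgeR called 0.192% of all genes in either direction, 0.0861% lower and 0.106% higher. The same 2 genes had no overlap between the groups, beside 5.88% of all genes. Since Igf2 and Igfbp4 are why the family was chosen, nothing is read from that count. Leaving out any of 14 of the 16 libraries ended the call on Igf2, at log2 fold changes of -3.34 to -2.69; only control day 5 replicate 6 and exercise day 10 replicate 18 could be left out without that. The call on Igfbp4 was lost without control day 10 replicate 2 or 3, control day 5 replicate 2, or exercise day 10 replicate 13, 17 or 19, at -0.97 to -0.91. The log2 fold changes of the other 8 genes lay between -0.42 (Igfbp7, SE 0.21) and 0.40 (Igf1r, SE 0.29).

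At day 5, edgeR called 0 of the 10 genes and 0% of all genes for exercise against control, and the groups of all 10 overlapped, where 7.29% of all genes did not. At an unadjusted p under 0.05 there were 0 of the 10 and 1513 of 15096 genes. DESeq2 called 80 genes and limma-voom 0, with no member among them. The 10 log2 fold changes lay between -0.79 (Igfbp6, SE 1.04) and 0.26 (Igf2r, SE 0.18), with a median of -0.12 against 0.01 over all tested genes.

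Igfbp5 (ENSMUSG00000026185, chromosome 1, 72857932 to 72874884, minus strand) encodes a binding protein that attaches to extracellular matrix. Its gene lies tail to tail with Igfbp2, 5457 bases away. It had 566, 334, 1131 and 1034 CPM in exercise day 10 replicates 13, 17, 18 and 19, against 417, 99.3, 364 and 91.7 CPM in exercise day 5 replicates 1, 2, 7 and 12. Replicate 17 of day 10 lay below replicates 1 and 7 of day 5, so the groups overlapped, and the log2 fold change of 1.65 (SE 0.57) missed the threshold (edgeR adjusted p 0.0771). DESeq2 gave 1.66 with an adjusted p of 0.0324, and over all alternatives the adjusted p ranged from 0.0324 to 0.195. In control lesions it averaged 725 ± 194 CPM at day 10 and 292 ± 195 CPM at day 5 (log2 fold change 1.31, SE 0.56). Exercise and control lesions overlapped at each day, with log2 fold changes of 0.08 (SE 0.55) at day 10 and -0.26 (SE 0.56, edgeR adjusted p 0.912) at day 5.

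Postn, a matrix gene of activated fibroblasts, followed Igfbp5 most closely (r 0.94, rho 0.95), ahead of Nrep (r 0.93, rho 0.88) and the sodium channel gene Scn7a (r 0.93, rho 0.88). Postn averaged 180 CPM at day 10 and 43.5 CPM at day 5 in exercise lesions, and the pooled correlations include such differences between the days. Exercise day 10 replicates 18 and 19, with the highest Igfbp5, also had the highest fibroblast sums, and replicates 13 and 17, with 566 and 334 CPM of Igfbp5, had sums of 1601 and 1652 CPM. In exercise day 5 replicates 1, 2, 7 and 12 the fibroblast sums were 1905, 1727, 2855 and 1628 CPM, with Igfbp5 at 417, 99.3, 364 and 91.7 CPM. The part of fibroblasts in the level of Igfbp5 was not tested.

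Igfbp7 (ENSMUSG00000036256, chromosome 5, 77349240 to 77408041, minus strand) encodes a matrix and vessel wall protein that binds IGFs weakly. It averaged 77.6 ± 22.3 CPM in exercise and 104 ± 11.7 CPM in control lesions at day 10, with overlap, and 76.1 ± 19.02 CPM in exercise and 66.8 ± 16.1 CPM in control lesions at day 5. In control lesions every day 10 library (95.1 to 121 CPM) lay above every day 5 library (45.3 to 80.1 CPM), with a log2 fold change of 0.64 (SE 0.21). In exercise lesions the day effect was 0.03 (SE 0.21, edgeR adjusted p 0.953). Dcn (r 0.93, rho 0.87), Pdgfrb (r 0.91, rho 0.89) and Col8a2 (r 0.91, rho 0.85) followed it most closely, of which Dcn and Pdgfrb are in the list of fibroblast markers. Polr2b overlaps exons of Igfbp7 on the opposite strand.

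Igfbp6 (ENSMUSG00000023046, chromosome 15, 102144362 to 102149511, plus strand), whose protein prefers IGF2, was near the detection limit, at 2 to 156 counts per library. It had 1.02, 2.15, 11.8 and 6.59 CPM in exercise day 10 replicates 13, 17, 18 and 19, against 1.67, 1.36, 14.5 and 0.409 CPM in control day 10 replicates 2, 3, 4 and 5. At day 5 it had 0.184 to 2.26 CPM in exercise and 0.891 to 5.58 CPM in control libraries. All groups overlapped, and the day effect in exercise lesions (1.97, SE 1.03, edgeR adjusted p 0.245) was not shown at this depth. Without exercise day 10 replicate 18 the exercise effect at day 10 was -0.47 in place of 0.28. Without control day 10 replicate 4 it was 2.22, and the day effect in control lesions was -1.05 in place of 0.90. Its closest genes were 1110003F10Rik, Cdkn2b and C1qtnf6 (r 0.91, 0.82 and 0.82).

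Scaled by exon length for a rough comparison between genes, the leading gene of the family changed between groups. The scaling assumes reads spread evenly over the exons, which was not checked in this amplified, poly(A)-selected RNA. Without scaling, Igf1 had the highest mean at day 5, at 490 CPM in exercise and 556 CPM in control lesions. Igfbp7 was at 76.1 and 66.8 CPM there. In exercise day 10 the order of mean levels was Igfbp5 (128 CPM per kilobase), Igfbp7 (64.2), Igf1 (50.005), Igf2 (33.3), Igfbp4 (16.6) and Igfbp3 (14.5). In control day 10 it was Igf2 (273 CPM per kilobase), Igfbp5 (121), Igfbp7 (86.0), Igf1 (56.2), Igfbp4 (32.2) and Igfbp3 (14.6). In exercise day 5, Igfbp7 (63.0), Igf1 (49.5), Igfbp5 (40.5) and Igfbp2 (37.6 CPM per kilobase) led, and in control day 5 Igf1 (56.1), Igfbp7 (55.2), Igfbp5 (48.6) and Igfbp2 (34.5 CPM per kilobase) led. In control day 10, whose Igf2 values chose the family, Igf2 ranged from 207 to 315 and Igfbp5 from 79.8 to 151 CPM per kilobase. The leading genes of the other groups overlapped in their ranges. Igf2r (3.69 to 7.92) and Igf1r (2.60 to 3.44 CPM per kilobase) had low means in every group.

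**Figure D4:**
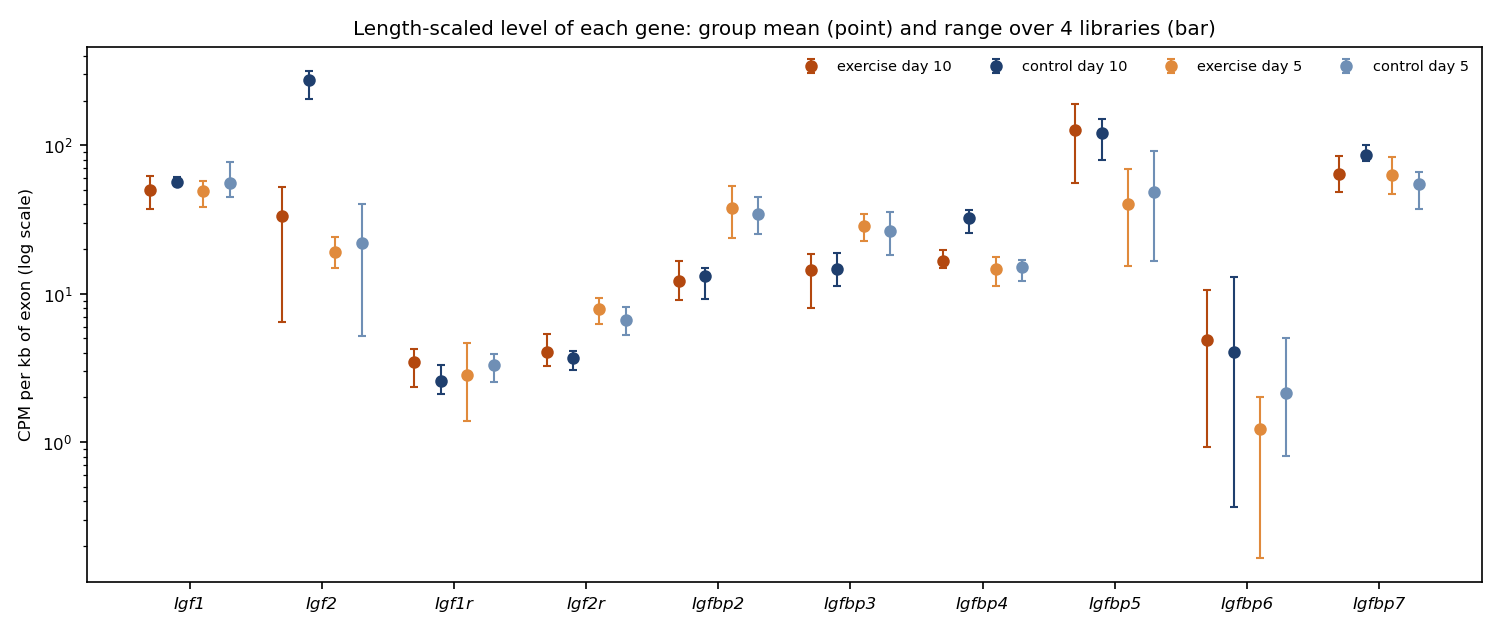
CPM per kilobase of exon (log axis) of each gene in each group, with points for the mean and bars from the lowest to the highest of 4 libraries. Igf2 in control day 10 (273 on average) is above all other points, and Igf1r, Igf2r and Igfbp6 have the lowest means at day 10.

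Genes that act around the IGFs were taken as lists and counted by the same test. Of 11 other carriers and proteases, 8 were tested: in exercise lesions Mmp2, a matrix protease that can cut binding proteins, was higher at day 10 (45.6 ± 11.3 CPM at day 10 against 23.4 ± 4.05 CPM at day 5, log2 fold change 0.96, edgeR adjusted p 0.0145). Pappa, the gene of PAPP-A, was lower (2.13 ± 1.81 CPM at day 10 against 6.23 ± 1.63 CPM at day 5, log2 fold change -1.54, edgeR adjusted p 0.0449), and the other 6 were not called. Igfbp1, the neighbour of Igfbp3 at 3539 bases, averaged 0.0218 CPM, and Igfals, which forms the circulating complex with Igfbp3, was at 0 in all 16 libraries. In control lesions 0 of the 8 were called.

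Of 5 further receptors 3 were tested (Lrp1, Insr and Ghr), and 0 were called in any comparison, with Lrp1 at 320.3 ± 68.0 CPM in exercise and 254 ± 18.7 CPM in control lesions at day 10 and Insr, the insulin receptor gene, at 24.96 ± 5.32 CPM in exercise and 20.9 ± 4.55 CPM in control lesions. Ghr, the growth hormone receptor gene, lay the other way at 12.1 ± 3.996 CPM in exercise and 19.2 ± 1.88 CPM in control lesions (log2 fold change -0.67, SE 0.24, edgeR adjusted p 0.27). Among 3 tested genes of IGF RNA binding and imprinting, Igf2bp2, an RNA-binding protein gene, was lower at day 10 in exercise lesions (6.63 ± 1.28 CPM at day 10 against 14.4 ± 3.87 CPM at day 5, log2 fold change -1.12, edgeR adjusted p 0.0149). It was also lower at day 10 in control lesions (7.29 ± 1.52 CPM at day 10 against 15.97 ± 6.51 CPM at day 5). H19 and Igf2bp3 were not called.

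All 25 genes of intracellular signalling were tested. In exercise lesions 2 were higher at day 10 and 0 lower: Rptor, a subunit of the mTOR complex (log2 fold change 0.53, edgeR adjusted p 0.0145), and Foxo3, a transcription factor that AKT holds in the cytoplasm (0.34, edgeR adjusted p 0.0471). In control lesions 3 were higher (Mtor, Rptor and Foxo1) and 2 lower (Eif4ebp1 and Rheb). Their median log2 fold change was 0.13 in exercise and 0.06 in control lesions. Exercise against control gave 0 calls among the 25 at either day, with 2 at day 10 and 3 at day 5 at an unadjusted p under 0.05, beside 12.8% of all genes at day 10 and 10% at day 5.

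Of 8 genes of matrix and other partners of IGF binding proteins, 1 was higher and 4 lower at day 10 in exercise lesions. In control lesions 1 was higher and 6 lower. Spp1, the gene of osteopontin, averaged 1700.0 ± 1432 CPM at day 10 and 9110 ± 3226 CPM at day 5 in exercise lesions (log2 fold change -2.42, edgeR adjusted p 0.00288). Cd93, Itgav and Itga5 were the others lower there (log2 fold changes of -1.86, -0.39 and -0.51), and Vtn, the gene of vitronectin, was the higher one (1.07). In control lesions Vtn was higher at day 10 and Spp1, Cd93, Fn1, Itgav, Itga5 and Itgb1 were lower. Vtn was also lower in exercise than in control lesions at day 10 (50.8 ± 17.8 CPM in exercise against 111 ± 16.3 CPM in control lesions). The list counts stand beside 10.1% of all genes called in exercise and 12.3% in control lesions.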

How the data were processed

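The members, lists and rules of this report were chosen with earlier results of these data known. Per the labels' protocols, RNA of laser-dissected lesions was amplified, selected for poly(A) and read from 1 end over 75 nt with the strand kept. Alignment to GRCm38 used TopHat2 2.0.10, with Bowtie 1.1.2 among the listed tools, per the submitters' processing notes. The deposited raw counts per Ensembl gene, and the exon length used for levels per kilobase, came from featureCounts 1.5.0-p1 in its forward-strand setting, per the file headers. The authors deposited log2 fold changes with their standard errors and p-values in comparison tables of DESeq2 layout, per the file headers. Amplification before sequencing can add spread, and reads were not collapsed to molecules as far as the sources state.

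From the counts, edgeR 4.0.16 (R 4.3.3) kept genes by filterByExpr (minimum count 10, minimum total 15), scaled by TMM, and fitted 4 group means over 16 libraries with 12 residual degrees of freedom and robust quasi-likelihood. P-values were adjusted by Benjamini-Hochberg across all 15096 tested genes, and a gene called higher or lower passed 0.05. SE is the log2 fold change divided by the root of the quasi-likelihood F. Log2 CPM used a prior count of 2. Symbols matched 45143 of 46078 gene IDs (GENCODE M21). The fit was tested on simulated data. Named were all members, the 3 genes most like each, and called genes of each list or otherwise some of its most abundant ones. Likeness was a correlation over the 16 libraries pooled, which includes the differences between groups. Alternatives used limma 3.58.1 and DESeq2 1.42.0.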

Additional observations from a re-analysis of the deposited data

Results flagged for a closer look

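In 2 of 40 sets of 4 libraries (10 genes in 4 groups) 1 library lay far from the others by the gap to its nearest neighbour over the whole range, where chance gives about 1 set in 20. Igfbp2 in control day 10 replicate 2 was at 16.9 CPM, below the 26.0 to 27.6 CPM of the other libraries of its group (gap over range 0.842). Igfbp6 in control day 10 replicate 4 was at 14.5 CPM, above the 0.409 to 1.67 CPM of the others (gap over range 0.911).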

How the results depend on the processing

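Of 1090 alternative values of the 50 log2 fold changes of members (10 genes in 5 comparisons), 50 had another sign than the reported value, in 19 of the 50. None of the 10 called values was among these 19. The largest opposite value was that of Igfbp6 for day 10 against day 5 in control lesions (-1.05 in place of 0.90, without control day 10 replicate 4). At day 10, the exercise effect reached -0.47 for Igfbp6, -0.17 for Igfbp5, 0.18 for Igfbp3 and -0.03 for Igf2r. With single libraries left out, the exercise effect at day 5 ranged from -0.27 to 0.0093 for Igf1, -0.52 to 0.27 for Igf2, -0.57 to 0.00095 for Igf1r, -0.10 to 0.30 for Igfbp2, -0.0025 to 0.32 for Igfbp3, -0.16 to 0.0615 for Igfbp4, -0.65 to 0.25 for Igfbp5 and -1.15 to 0.0510 for Igfbp6. The day effect in exercise lesions ranged from -0.10 to 0.13 for Igf1 and -0.13 to 0.19 for Igfbp7. Limma-voom gave 0.11 for Igf2 at day 5 and -0.000716 for the day effect of Igf1 in exercise lesions. The falls of Igf2r and Igfbp2 in exercise lesions were called in all 22 alternatives, and that of Igfbp3 in 21.

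Counts over all genes moved more. For exercise against control at day 5, DESeq2 called 80 genes, and leaving out single libraries gave 0 to 1. At day 10, in place of 29, DESeq2 called 227, the libraries of the 2 groups alone 0, and left-out libraries 0 to 133. For the day effect in exercise lesions, in place of 1520, the 2 groups alone gave 856 and left-out libraries 975 to 1839, with 975 lacking exercise day 5 replicate 7. The difference between the day effects gave 18 genes by DESeq2 and 0 to 1 with libraries left out. The cause was not tested.

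Groups share some replicate numbers, but libraries with the same number did not deviate together (r -0.07 to 0.07). With the number as a replicate block (9 residual degrees of freedom), 918 genes were called for the day effect in exercise lesions and 0 for exercise against control at day 10. With the block, the day effect of Igfbp3 in exercise lesions was -0.80 (adjusted p 0.0645 by edgeR). The exercise effect of Igf2 at day 5 was 0.0023. At day 10 the calls on Igf2 (-2.93) and Igfbp4 (-0.98) were lost with the block, as was that on Igfbp3 in control lesions (-0.70).

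With the libraries of the 2 groups alone, the day 10 calls on Igf2 (-3.04) and Igfbp4 (-0.96) were lost too, and with no filter on low counts those on Igf2 (-3.05) and on Igfbp3 in control lesions (-0.84). Igfbp7 in control lesions passed by DESeq2 (0.64), limma-voom (0.67) and with the 2 groups alone (0.64).

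Depth limits Igfbp6, at 2 to 156 counts, and Igf1r, at 49 to 228.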
